A study of Mus musculus with 31 samples.

Results

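The genes described here are the mouse Fc gamma receptor genes Fcgr1, Fcgr2b, Fcgr3 and Fcgr4 together with Fcer1g, the signalling chain that the activating receptors share. They were taken by symbol and not by a cut-off on their values, but with earlier results of these data known. All 5 were found among the 22609 gene symbols of each of the 31 count tables. Fc gamma receptors sit on the surface of macrophages, monocytes, neutrophils and other leukocytes and bind the constant part of IgG, so that antibody-coated material is taken up or triggers a cellular response. Fcgr1 encodes the high-affinity receptor (CD64), and Fcgr3 and Fcgr4 encode activating receptors of lower affinity. All 3 signal through the ITAM, an activating tyrosine motif, of the Fcer1g chain. Fcgr2b is the inhibitory receptor. It carries an ITIM, the inhibitory counterpart, which recruits phosphatases that oppose the activating signal. In muscle these genes are mainly markers of infiltrating and resident myeloid cells, and Fcgr1 serves as a surface marker of macrophages and monocytes.

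Bulk RNA-seq was performed on masseter muscle (MM), a jaw-closing muscle, of 31 adult C57BL/6J male mice aged 2 to 4 months, with each library taken as 1 mouse. The left MM received 10 µl of complete Freund's adjuvant (CFA, mixed 1:1 with PBS, an emulsion that causes inflammation), collagenase type 2 (Col, an enzyme preparation that digests collagen) at 0.2U or 10U, or PBS vehicle. The groups are named by their labels: CFA 1d (3 mice), CFA 5d (3), CFA vehicle (3), Col 0.2U 1C (4), Col 0.2U RPC (4), Col 10U 2d (4), Col 10U 6d (3), Col 10U 12d (4) and Col vehicle (3). The study's text gives days 1 and 14 for the groups labelled 2d and 12d, and the labels do not say which low-dose group is the earlier one. The day on which vehicle mice were collected is not given in the sources used here. Each injected group was set against the vehicle group of its own experiment, so that groups of 1 experiment share their controls.

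Between 14843778 and 29076671 reads (median 20834472) were counted on genes per library, and the 5 genes had 2 to 2711 reads each. Several libraries held RNA of other tissues. Levels are given as CPM, reads of a gene per 1000000 counted reads. The summed CPM of 11 salivary gland markers ranged from 11.4 to 324928 over the 31 libraries, and those of 7 marrow granulocyte precursor markers from 1.71 to 923. The muscle label was borne out in all libraries, with 8 skeletal muscle markers summing to 31701 to 179760 CPM. Reads that fell on more than 1 gene made up 0.675 to 0.875% of gene reads in the 11 Col 10U libraries and 0.147 to 0.317% in the other 20. A difference in library handling or counting between the Col 10U groups and Col vehicle therefore cannot be told apart from the treatment. The Col 10U groups had similar shares of such reads. Whether they were dissected and processed together is not given in the sources used here. A difference in handling between them thus cannot be told apart from the day. In the GENCODE vM1 annotation no exon of the 5 genes overlapped an exon of another gene on either strand.

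Fcgr2b, Fcgr3, Fcgr4 and Fcer1g lie within 274 kb of chromosome 1 in build mm9. Fcgr2b occupies chr1:172890689-172906678 on the minus strand, Fcgr4 chr1:172949051-172959892 on the plus strand, Fcgr3 chr1:172981300-172995066 on the minus strand and Fcer1g chr1:173159703-173164496 on the minus strand. Fcgr1 stands alone at chr3:96086832-96098179 on the minus strand. Fcgr2b and Fcgr3 are near-identical in the exons of their IgG-binding domains. Of the aligned 255 bases of the fourth coding exon 250 were identical (98%), and of the aligned 255 bases of the third coding exon 241 were identical (94.5%). A stretch of 120 bases of the fourth coding exon, read from the mm9 transcripts, is shown because reads from it decide how well the inhibitory and the activating gene can be told apart, and capitals mark the 3 bases that differ.
Fcgr2b, chr1:172896688-172896807, minus strand: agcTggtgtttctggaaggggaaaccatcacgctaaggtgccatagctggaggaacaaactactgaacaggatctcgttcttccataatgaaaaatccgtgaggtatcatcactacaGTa
Fcgr3, chr1:172984181-172984300, minus strand: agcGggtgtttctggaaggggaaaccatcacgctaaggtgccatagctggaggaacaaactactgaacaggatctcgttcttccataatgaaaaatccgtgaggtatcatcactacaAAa
The identical run of 113 bases is longer than a read of 50 bases. Of all distinct 50-base windows in the annotated protein-coding transcripts, 166 of 1650 in Fcgr2b (10.1%) and 166 of 1633 in Fcgr3 (10.2%) occurred in both genes. Reads that align to more than 1 place are by default left uncounted by HTSeq, the counting tool named in the labels. Fcgr1, Fcgr4 and Fcer1g shared no window with a transcript of another gene. The counts of the 5 genes can thus be read as separate measurements over most of their length.

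The windows upstream of the transcription starts are shown because the levels of the 5 genes varied together across the libraries. They come from RefSeq on build GRCm38.p6, which matched all 5 symbols, and the 150 bases before the start are given on the strand of the gene. The outermost of 2 listed starts was taken for Fcgr3. Capitals mark matches to the core GAGGAA of ETS-family factors active in myeloid cells or to the STAT pattern TTCNNNGAA, both searched on both strands in the whole window from 250 bases before to 50 bases after the start.
Fcgr1, chr3:96293970-96294119, minus strand: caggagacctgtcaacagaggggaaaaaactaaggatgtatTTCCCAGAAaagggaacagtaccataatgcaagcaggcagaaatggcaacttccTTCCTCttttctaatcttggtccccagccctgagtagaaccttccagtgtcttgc
Fcgr3, chr1:171059404-171059553, minus strand: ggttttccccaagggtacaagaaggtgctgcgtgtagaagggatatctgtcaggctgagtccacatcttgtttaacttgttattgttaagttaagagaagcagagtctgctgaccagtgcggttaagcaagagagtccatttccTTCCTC
Fcgr4, chr1:171018776-171018925, plus strand: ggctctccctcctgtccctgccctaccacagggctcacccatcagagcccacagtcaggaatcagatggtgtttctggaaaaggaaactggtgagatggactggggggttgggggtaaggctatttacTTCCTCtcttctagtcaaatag
Fcgr2b, chr1:170976072-170976221, minus strand: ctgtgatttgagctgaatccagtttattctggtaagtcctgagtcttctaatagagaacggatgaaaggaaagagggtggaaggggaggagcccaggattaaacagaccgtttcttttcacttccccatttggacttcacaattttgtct
Fcer1g, chr1:171234350-171234499, minus strand: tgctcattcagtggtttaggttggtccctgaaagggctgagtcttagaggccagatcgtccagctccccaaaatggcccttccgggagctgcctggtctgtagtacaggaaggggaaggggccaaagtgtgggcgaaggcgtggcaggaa
The ETS core was present in the windows of the 3 activating receptors, beginning 55 bases before the start in Fcgr1, 6 bases before it in Fcgr3 and 22 bases before it in Fcgr4, each time on the other strand. It was also present in 9289 of all 32851 promoter windows (28.3%). The STAT pattern was found in Fcgr1, 109 bases before the start, and in 2726 of all windows (8.3%). Neither set of letters occurred in the windows of Fcgr2b and Fcer1g. These matches are descriptions of letters and not measured binding sites.

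In vehicle-treated MM the 5 genes were low but detected in every mouse. To compare genes with each other, CPM scaled by TMM were divided by the length of all annotated exons in kb (RPKM). In the Col vehicle group the mean was 14.8 RPKM for Fcer1g, 6.29 for Fcgr3, 1.76 for Fcgr2b, 0.757 for Fcgr4 and 0.534 for Fcgr1. The order was almost the same in the CFA vehicle group, with 11.1, 5.97, 1.67, 0.442 and 0.493 RPKM. By RPKM the common chain was the most abundant of the 5 transcripts in vehicle-injected muscle and the high-affinity receptor was among the 2 rarest. By CPM alone, Fcgr3 (10.4) was above Fcer1g (8.90) in the CFA vehicle group. In the Col 10U 6d group the mean levels were 85.7 RPKM for Fcer1g, 26.8 for Fcgr3, 15.4 for Fcgr2b, 8.29 for Fcgr1 and 7.73 for Fcgr4. By CPM alone, Fcgr2b (59.4) was above Fcgr3 (46.6) there. Their order thus rests on the exon lengths, 3849 bases for Fcgr2b and 1741 for Fcgr3. In whole tissue, fewer cells that express a gene and less RNA of it per cell cannot be told apart.

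**Figure D1:**
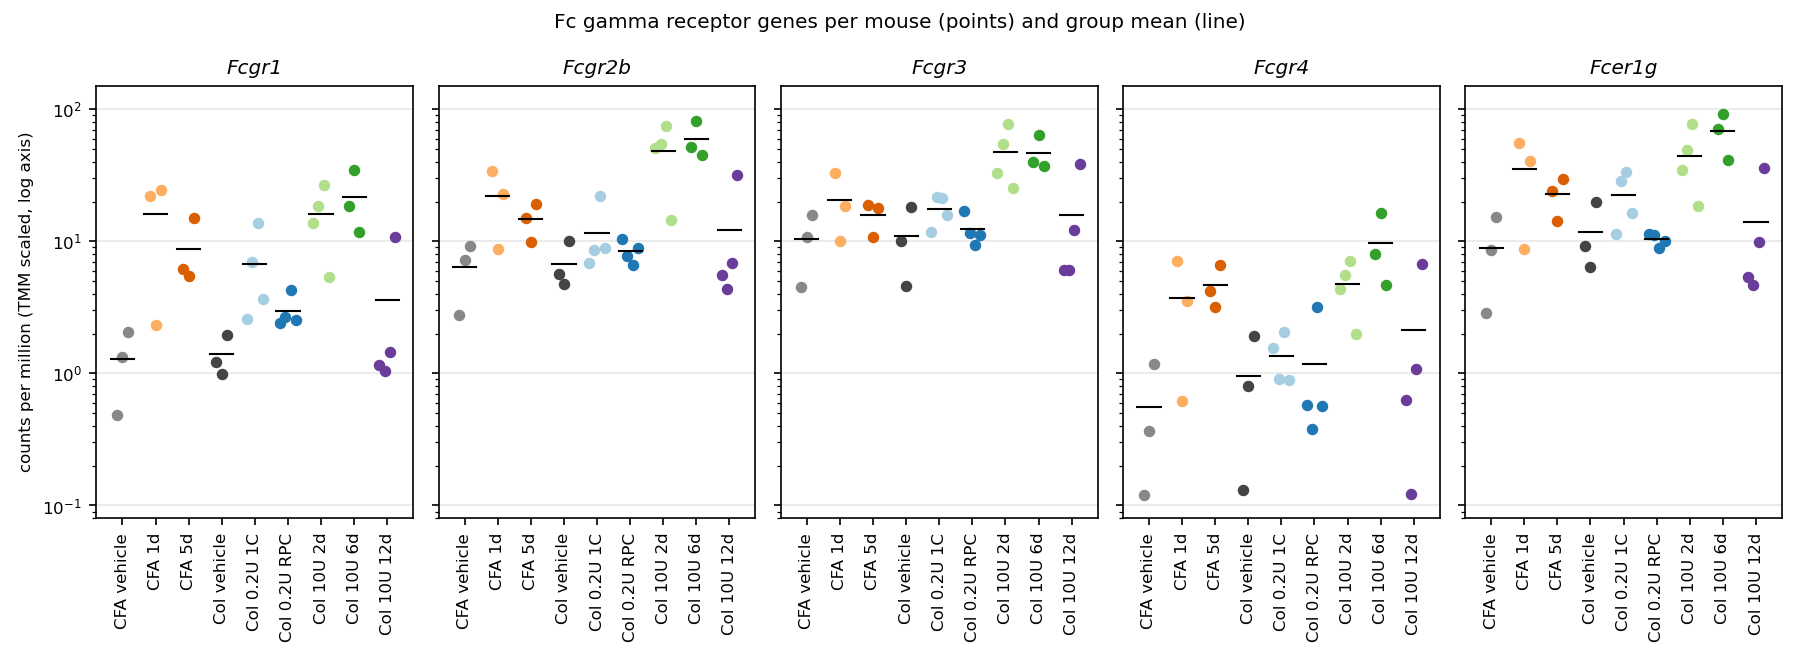
Level of each Fc gamma receptor gene (TMM-scaled CPM, log axis) in every mouse of the 9 groups, with black lines for group means. The highest group mean was that of Col 10U 6d for 4 genes and of Col 10U 2d for Fcgr3, and 1 mouse of the Col 10U 12d group stood far above its 3 group mates.

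After CFA the high-affinity receptor Fcgr1 had the largest fitted difference of the 5 genes at 1d, though no member passed the adjusted threshold. Fcgr1 was at 22.0, 2.31 and 24.4 CPM in the 3 CFA 1d mice and at 0.484, 1.32 and 2.06 CPM in the CFA vehicle mice. Every CFA 1d mouse was above every vehicle mouse, although the second CFA 1d mouse was only slightly so. The fitted difference was 3.63 ± 0.91 (log2 fold change ± SE), with an adjusted p of 0.924 by edgeR's quasi-likelihood test. The activating receptor Fcgr3 had 32.7, 10.1 and 18.4 CPM at CFA 1d and 4.52, 10.7 and 15.9 CPM in vehicle mice (0.95 ± 0.54). Fcgr4 had 7.04, 0.623 and 3.53 CPM against 0.121, 0.365 and 1.18 CPM (2.69 ± 1.02). The groups of both genes overlapped, because the second CFA 1d mouse lay within the vehicle range. For the common chain Fcer1g the values were 56.0, 8.80 and 40.7 CPM against 2.87, 8.66 and 15.2 CPM (1.95 ± 0.76). For the inhibitory receptor Fcgr2b they were 34.3, 8.76 and 22.8 CPM against 2.79, 7.25 and 9.24 CPM (1.75 ± 0.58). All 5 fitted differences were positive, none passed an adjusted p of 0.05, and 0% of 13944 genes were called higher in this comparison. By edgeR without adjustment 4 of the 5 had p under 0.05, as had 3.06% of all genes tested in the upward direction, and DESeq2 called Fcgr1 (adjusted p = 0.00241), where it called 0.33% of genes higher. Only Fcgr1 had groups that did not overlap upward, against 3.05% of all genes tested. The second CFA 1d mouse also had the lowest summed monocyte markers of its group, 17.6 CPM against 83.0 and 139 CPM. CFA vehicle mouse 3, the highest of its group for all 5 genes, had 562 CPM of marrow granulocyte precursor markers against 2.06 and 4.15 CPM in its group mates. The CFA 1d mice had 23.5 to 369 CPM of the same precursor markers. The part of these cells in the members' values was not tested.

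At CFA 5d 3 of the genes, Fcgr1, Fcgr2b and Fcgr4, were above vehicle in every mouse. Fcgr1 was at 6.13, 5.42 and 14.9 CPM and Fcgr4 at 4.21, 3.18 and 6.61 CPM, in each case above all 3 CFA vehicle mice. The fitted differences were 2.80 ± 0.63 for Fcgr1 (edgeR adjusted p = 0.091) and 3.07 ± 0.75 for Fcgr4 (adjusted p = 0.113). Fcgr2b had 14.9, 9.80 and 19.2 CPM, also without overlap with vehicle (1.23 ± 0.46, adjusted p = 0.292). The remaining activating receptor Fcgr3, with 18.9, 10.8 and 17.9 CPM (0.65 ± 0.46), and the chain Fcer1g, with 24.1, 14.2 and 29.9 CPM (1.39 ± 0.57), overlapped with vehicle. No member was called by edgeR, where 1.06% of 14026 genes were called higher. At an unadjusted p under 0.05 there were 4 members, against 10.3% of all genes in the upward direction, and 3 members had groups without overlap, against 12.8% of all genes. DESeq2 called Fcgr1 (adjusted p = 0.000386) and Fcgr4 (adjusted p = 0.00205), where it called 5.06% of genes higher. Without CFA vehicle mouse 3, the one with marrow RNA, edgeR called 4 members: Fcgr1 (3.37 ± 0.59, adjusted p = 0.00493), Fcgr4 (4.34 ± 0.57, adjusted p = 0.000934), Fcer1g (2.06 ± 0.46, adjusted p = 0.0156) and Fcgr2b (1.63 ± 0.42, adjusted p = 0.0294). The number of calls at CFA 5d thus depended on that 1 control. All 3 CFA 5d mice also carried salivary gland RNA, with gland markers summing to 143447 to 180827 CPM against 107 to 16754 CPM in CFA vehicle mice, and 10 of 10 tested gland markers had positive differences (median 4.32, 0 called). With the salivary gland, marrow precursor and bone marker scores as covariates in 1 model of all 31 libraries, an alternative chosen after seeing the data, 0 of 15526 genes and no member were called by edgeR, against 33 higher and 5 lower in the same model without covariates and 149 higher and 6 lower in the fit of the 2 groups alone. In that model Fcgr1 was at 2.88 ± 1.06 (adjusted p = 0.872) and Fcgr4 at 2.93 ± 1.29 (adjusted p = 0.946). Between CFA 5d and CFA 1d no member was called by edgeR or DESeq2, with fitted differences from -0.84 ± 0.77 for Fcgr1 to 0.38 ± 0.71 for Fcgr4 and the smallest unadjusted p at 0.288, where edgeR called 4.85% of 14046 genes higher and 0.99% lower and DESeq2 6.69% higher.

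After the low dose of Col only Fcgr1 stood clear of the vehicle mice. In the Col 0.2U 1C group it was at 2.56, 6.96, 13.8 and 3.68 CPM, and in the Col vehicle group at 1.22, 0.998 and 1.97 CPM. In the Col 0.2U RPC group it was at 2.39, 2.67, 4.27 and 2.54 CPM. All 8 low-dose mice were thus above all 3 vehicle mice, but the differences were 2.26 ± 0.63 (edgeR adjusted p = 0.276) and 1.08 ± 0.38 (adjusted p = 0.31), and 0% of the 14493 and 14269 genes tested were called higher. The other 4 members overlapped with vehicle in both groups. In the 1C group their differences ran from 0.50 ± 0.76 for Fcgr4 to 0.93 ± 0.50 for Fcer1g, and in the RPC group from -0.20 ± 0.38 for Fcer1g to 0.31 ± 0.32 for Fcgr2b. At an unadjusted p under 0.05 Fcgr1 was the only member in either group, against 6.82% and 6.33% of all genes in the upward direction. DESeq2 called Fcgr1 in the 1C group (adjusted p = 0.0121), where it called 2.48% of genes higher, and no member in the RPC group, where it called 1.32% of genes higher and gave no adjusted p for Fcgr1 and Fcgr4. Groups without upward overlap were seen for 4.22% of all genes in the 1C group and 4.79% in the RPC group. Both groups also held RNA of other tissues. Marrow precursor markers summed to 254 to 709 CPM in 1C and 178 to 515 CPM in RPC, against 8.98 to 923 CPM in Col vehicle. Salivary gland markers summed to 136 to 39929 and 29382 to 324928 CPM, against 90.8 to 162843 CPM. The part of these tissues in the Fcgr1 difference was not tested.

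After the high dose of Col the receptors reached their highest levels, with Fcgr1 called at 2d and all 5 genes called at 6d. At Col 10U 2d Fcgr1 was at 13.8, 18.4, 26.8 and 5.34 CPM, against at most 1.97 CPM in vehicle mice. It was called higher, by 3.46 ± 0.59 (edgeR adjusted p = 0.043), the only member called in a comparison in which 1.14% of 14373 genes were called higher. The inhibitory receptor Fcgr2b had 51.1, 54.4, 74.9 and 14.4 CPM against 5.62, 4.72 and 10.0 CPM, a difference of 2.79 ± 0.57 that missed the threshold (adjusted p = 0.0501). Fcgr3 had 33, 54.8, 77.3 and 25.4 CPM against 9.98, 4.59 and 18.3 CPM (2.06 ± 0.56, adjusted p = 0.0664). In each of these genes the fourth mouse was the lowest and still above every vehicle mouse. Fcgr4 had 4.37, 5.53, 7.12 and 2.00 CPM against 0.131, 0.798 and 1.92 CPM (2.26 ± 0.81, adjusted p = 0.104). Fcer1g had 34.4, 48.8, 76.8 and 18.5 CPM against 9.28, 6.39 and 19.8 CPM (1.86 ± 0.57, adjusted p = 0.0774). Fcer1g was the only one with an overlap, between the fourth Col mouse and the third vehicle mouse. Groups did not overlap in 4 of 5 members, against 13.4% of all genes, and all 5 had unadjusted p under 0.05, against 17.5% of all genes in the upward direction. DESeq2 called all 5, with adjusted p from 7.73e-08 for Fcgr1 to 0.022 for Fcgr4, where it called 11.7% of genes higher. Without the fourth Col mouse edgeR called all 5 members (adjusted p from 0.0012 to 0.0437), and without Col vehicle mouse 1 or 2, or Col 10U 2d mouse 1, 2 or 3, it called none.

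At Col 10U 6d all 5 genes were called higher, where 14% of 14281 genes were. Fcgr1 was at 18.6, 34.8 and 11.7 CPM, a difference from vehicle of 3.90 ± 0.48 (edgeR adjusted p = 0.00334). Fcgr4 was at 8.03, 16.4 and 4.65 CPM (3.29 ± 0.83, adjusted p = 0.0267) and Fcgr3 at 39.7, 63.3 and 36.9 CPM (2.04 ± 0.48, adjusted p = 0.0218). The lowest Col 10U 6d mouse lay above the highest vehicle mouse for each of the 3 activating receptors. Their chain Fcer1g was at 71.5, 92.8 and 41.5 CPM (2.49 ± 0.47, adjusted p = 0.0124), and the inhibitory Fcgr2b at 51.7, 81.5 and 45.0 CPM (3.08 ± 0.36, adjusted p = 0.00299). Neither of these overlapped with vehicle, and 26% of all genes were without upward overlap. As a fold change the fitted rise was 14.9-fold for Fcgr1, 9.81-fold for Fcgr4, 8.48-fold for Fcgr2b, 5.6-fold for Fcer1g and 4.11-fold for Fcgr3. Leaving out 1 mouse left Fcgr1 and Fcgr2b called in all 6 cases. The number of members called fell to 3 without Col 10U 6d mouse 1 and to 2 without Col 10U 6d mouse 2, and was 4 or 5 otherwise. In the same model with tissue marker covariates all 5 stayed called (adjusted p from 0.00658 to 0.0343). The summed gland and marrow markers were lower in every Col 10U 6d mouse (at most 34.0 and 3.65 CPM) than in any Col vehicle mouse (at least 90.8 and 8.98 CPM). The covariates thus cannot separate tissue makeup from treatment in this comparison.

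**Figure D2:**
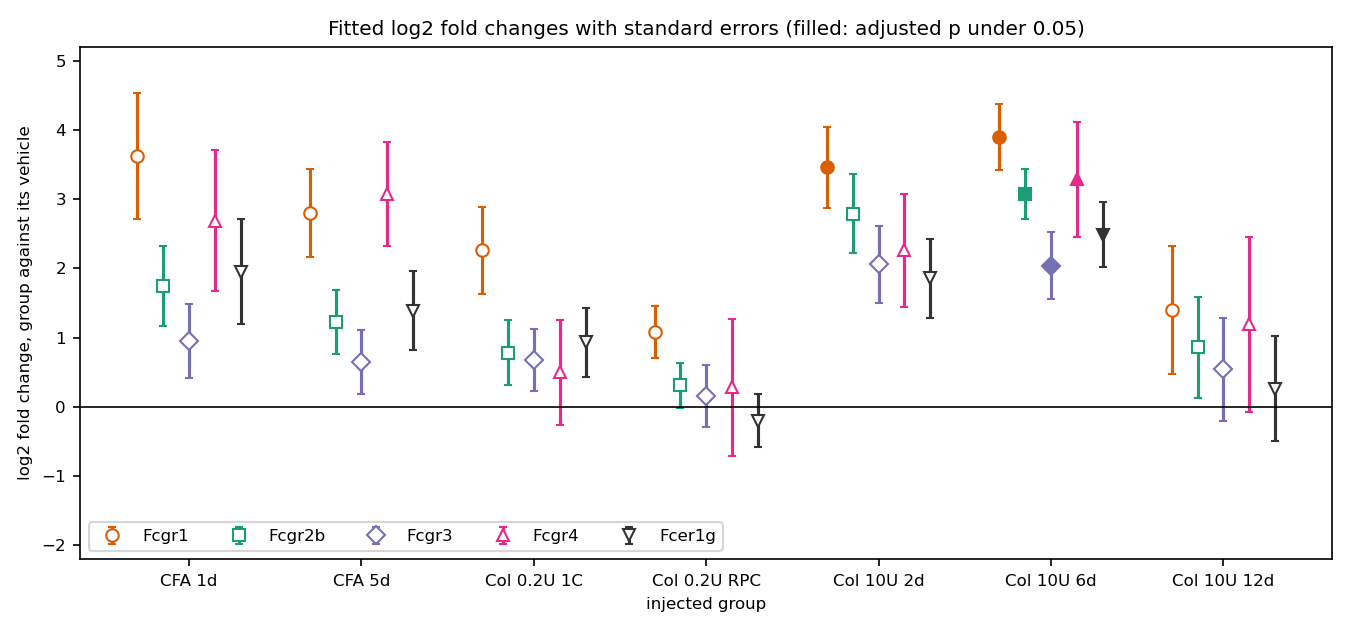
Log2 fold change of each member against the vehicle group of its own experiment (points, with SE bars), for the 7 injected groups. Filled points have an edgeR adjusted p under 0.05: Fcgr1 at Col 10U 2d and all 5 genes at Col 10U 6d. Groups within an experiment share vehicle mice.

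At Col 10U 12d 3 of 4 mice were not above the vehicle mice in any of the 5 genes. Fcgr1 was at 1.15, 1.04, 1.45 and 10.8 CPM and Fcgr4 at 0.625, 0.122, 1.08 and 6.74 CPM. Fcgr3 was at 6.11, 6.05, 12.2 and 38.5 CPM, Fcer1g at 5.39, 4.65, 9.91 and 35.9 CPM and Fcgr2b at 5.58, 4.34, 6.90 and 31.7 CPM. The fourth mouse was above every vehicle mouse in all 5 genes and the other 3 mice were not above the highest vehicle mouse in any. Against vehicle no member was called by edgeR, with 0 of 5 also at an unadjusted p under 0.05 and by DESeq2, where edgeR called 0.762% of 14176 genes higher and DESeq2 3.66%, and 9.59% had an unadjusted p under 0.05 in the upward direction. DESeq2 gave no p for Fcgr1 here. The fitted differences ran from 0.26 ± 0.76 for Fcer1g to 1.40 ± 0.92 for Fcgr1, and without the fourth mouse from -0.83 to -0.20. The fourth mouse also had the highest summed macrophage markers (1221 CPM against 280 to 498), the highest Ptprc, the pan-leukocyte CD45 gene (44.3 CPM against 5.69 to 9.75), and the lowest skeletal muscle markers (50163 CPM against 96673 to 122332) of its group.

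Along the high-dose course no member was called between Col 10U 6d and Col 10U 2d by edgeR or DESeq2, where edgeR called 4.68% of 14513 genes higher and 4.05% lower and DESeq2 8.82% higher. Their differences ran from -0.02 ± 0.39 for Fcgr3 to 1.04 ± 0.51 for Fcgr4. The 95% interval was -0.91 to 0.88 for Fcgr3 and -0.13 to 2.22 for Fcgr4, whose adjusted p was 0.239. The smallest unadjusted p of the 5 was 0.0749. From Col 10U 6d to Col 10U 12d 2 members were called lower, the inhibitory Fcgr2b (-2.27 ± 0.67, adjusted p = 0.0428) and the chain Fcer1g (-2.27 ± 0.69, adjusted p = 0.0467), where 13% of 14344 genes were called lower. Fcgr1 (-2.55 ± 0.84, adjusted p = 0.057), Fcgr3 (-1.55 ± 0.63, adjusted p = 0.0981) and Fcgr4 (-2.14 ± 0.99, adjusted p = 0.133) did not pass. Fcgr1, Fcgr2b and Fcer1g were below the Col 10U 6d range in every Col 10U 12d mouse, as were 18.7% of all genes. Without the fourth Col 10U 12d mouse all 5 were called lower, by 2.51 for Fcgr3 up to 4.14 for Fcgr1 on the log2 scale, and without any other single mouse of the 2 groups none was called.

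The early responses to the 2 agents were compared by an interaction term, the CFA 1d difference minus the Col 10U 2d difference. It was 0.19 ± 1.07 for Fcgr1, 0.44 ± 1.32 for Fcgr4, -1.10 ± 0.83 for Fcgr3, 0.11 ± 0.99 for Fcer1g and -1.02 ± 0.85 for Fcgr2b. No member was called by edgeR (adjusted p from 0.779 to 0.984) or DESeq2 and none had an unadjusted p under 0.05, where edgeR called 0.0406% of 14794 genes higher and 0.0541% lower and DESeq2 0.324% higher, and 3.31% had an unadjusted p under 0.05 in the upward direction. The 95% intervals were wide, from -2.13 to 2.51 for Fcgr1 and from -2.86 to 0.81 for Fcgr2b. A sizeable difference was thus not excluded, in either direction for Fcgr1 and in the negative direction for Fcgr2b. Between Col vehicle and CFA vehicle mice no member was called either, with differences from 0.10 ± 0.60 for Fcgr3 to 0.78 ± 1.06 for Fcgr4, 0 of 5 at an unadjusted p under 0.05 and 0 by DESeq2, where edgeR called 0.0426% of 14070 genes higher and DESeq2 0.377%, and 1.29% had an unadjusted p under 0.05 in the upward direction.

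Groups ordered by mean level gave nearly the same top for each gene. Col 10U 6d came first for Fcgr1, Fcgr2b, Fcgr4 and Fcer1g and Col 10U 2d for Fcgr3, with 47.6 ± 23.4 (SD, n = 4) against 46.6 ± 14.5 CPM (SD, n = 3) at Col 10U 6d. For Fcgr1 the order was Col 10U 6d, CFA 1d, Col 10U 2d, CFA 5d, Col 0.2U 1C, Col 10U 12d, Col 0.2U RPC, Col vehicle and CFA vehicle, from 21.7 ± 11.9 (SD, n = 3) to 1.29 ± 0.789 CPM (SD, n = 3). Neighbours in this order overlapped in their single values except Col 0.2U RPC and Col vehicle. For Fcgr3 the only neighbours without overlap were Col 10U 6d and CFA 1d, and for Fcgr2b, Fcgr4 and Fcer1g every pair of neighbours overlapped. The vehicle groups were the lowest 2 of 9 for each receptor, whereas for Fcer1g the Col 0.2U RPC group (10.4 CPM) lay between Col vehicle (11.8 CPM) and CFA vehicle (8.90 CPM).

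The balance between the members was measured as the log2 ratio of 2 genes' reads within a library, which does not depend on library scaling. The ratio of Fcgr1 to its chain Fcer1g was above the vehicle range in 6 of 7 injected groups, though no ratio passed the adjusted threshold. The log2 ratio of Fcgr1 to Fcer1g was -2.87 to -2.52 in CFA vehicle and -3.32 to -2.64 in Col vehicle mice. It was -1.92 to -0.74 at CFA 1d, -1.97 to -1.01 at CFA 5d, -2.14 to -1.29 in Col 0.2U 1C, -2.25 to -1.06 in Col 0.2U RPC, -1.79 to -1.32 at Col 10U 2d and -1.94 to -1.41 at Col 10U 6d. In these 6 groups every mouse was above every vehicle mouse, with mean differences of 1.05 to 1.44, and at Col 10U 12d (-2.75 to -1.74, a mean difference of 0.75) the ranges overlapped. The exact two-sided permutation test gave p = 0.0286 in the 3 groups of 4 mice without overlap and p = 0.1, the smallest that 3 against 3 mice allow, in the 3 groups of 3. After Benjamini-Hochberg adjustment over all 49 ratios tested the smallest value was 0.223, so that no ratio passed.

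The ratio of Fcgr1 to the inhibitory Fcgr2b was likewise higher, from -2.48 to -2.15 in CFA vehicle mice to -1.91 to 0.10 at CFA 1d and -1.28 to -0.37 at CFA 5d, and by mean differences of 0.65 to 1.33 in the Col groups other than Col 10U 12d (0.23). Ranges did not overlap with vehicle in those 6 groups (exact permutation p from 0.0286 to 0.1, adjusted p = 0.223). The ratio of Fcgr3 to Fcgr2b differed in the other direction. The log2 ratio of Fcgr3 to Fcgr2b was 0.56 to 0.79 in CFA vehicle mice, -0.31 to 0.21 at CFA 1d and -0.10 to 0.34 at CFA 5d, and it was -0.38 to -0.28 at Col 10U 6d against -0.04 to 0.86 in Col vehicle mice. These 3 groups did not overlap with their vehicle (exact permutation p = 0.1, adjusted p = 0.223). At Col 10U 2d the change of -0.49 was within the vehicle spread (exact permutation p = 0.314). The log2 ratio of Fcgr4 to Fcer1g was clear of vehicle at CFA 5d alone, with -2.51 to -2.15 against -4.49 to -3.67, and at Col 10U 6d it differed by 1.14 with overlapping ranges (exact permutation p = 0.4). In all, 19 of the 49 ratios had ranges apart from vehicle, 15 of them higher and 4 lower, and 4 had an unadjusted exact permutation p under 0.05. The 49 reuse the same vehicle mice and the same few genes and are not independent. The share of other gene pairs with ranges apart was not computed, so these counts have no background beside them.

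**Figure D3:**
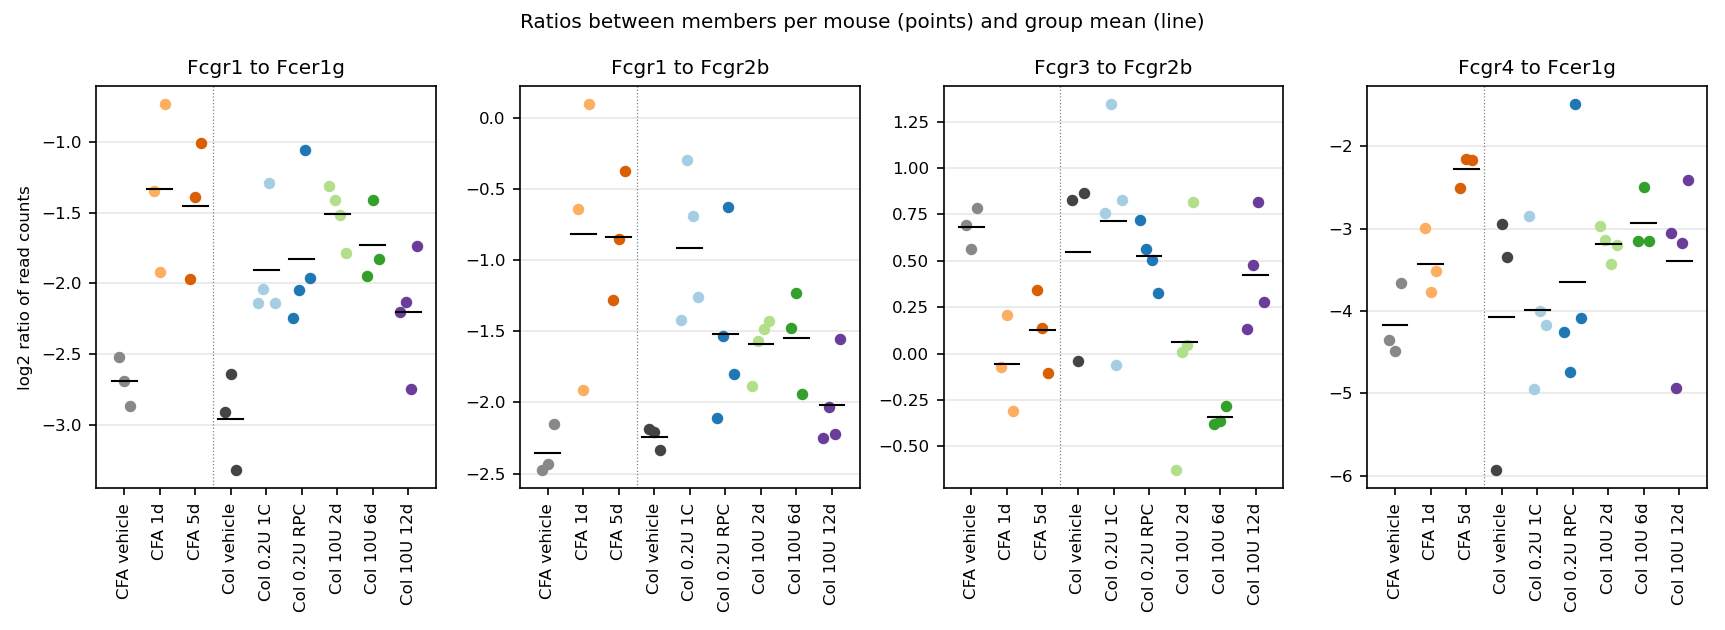
Log2 ratios of read counts between members in every mouse (points) with group means (lines), and a dotted line between the CFA and Col experiments. Fcgr1 to Fcer1g lay above its vehicle range in all mice of 6 injected groups, and Fcgr3 to Fcgr2b lay below it at CFA 1d, CFA 5d and Col 10U 6d.

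Genes that act with the receptors were described by list, each as the count called by edgeR beside the median log2 fold change, which over all genes tested was 0.02 at Col 10U 2d, 0.01 at Col 10U 6d and -0.02 at CFA 5d. The counts called higher stand against 1.14%, 14% and 1.06% of all genes tested in these comparisons, and were not tested against them. ITAM signalling, the kinases, adaptors and cytoskeletal regulators downstream of the activating receptors, had 4 of 18 tested genes called higher and none lower at Col 10U 6d, with a median of 1.05. The largest was Lat2, an adaptor of myeloid and B cells (2.42 ± 0.39, adjusted p = 0.00777), followed by Tyrobp, the ITAM chain DAP12 (2.13 ± 0.51, adjusted p = 0.0237), and Pik3ap1, a PI3K adaptor (1.87 ± 0.47, adjusted p = 0.0267). The list of ITIM receptors and their phosphatases, partners in function of Fcgr2b, had 6 of 12 called higher and none lower, with a median of 1.5. Among these were Lilrb4, an inhibitory leukocyte receptor (2.75 ± 0.69, adjusted p = 0.0266), Cd300a (2.20 ± 0.59, adjusted p = 0.0318) and Lilrb3 (1.94 ± 0.56, adjusted p = 0.039). Inpp5d, the phosphatase SHIP1 that Fcgr2b recruits, was also called, at 1.59 ± 0.43 (adjusted p = 0.0319). Genes of both the activating and the inhibitory list were among those called higher at this time, the ITAM list at a share not far from the 14% of all genes. At Col 10U 2d 2 of 18 and 0 of 12 were called, with medians of 0.94 and 1.37, and at CFA 5d none of either list was called, with medians of 0.63 and 0.77.

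Other receptors that use the Fcer1g chain were mostly too low to test. Of 11 such genes 5 were tested at Col 10U 6d and 2 were called higher, the C-type lectins Clec4n (Dectin-2; 7.11 ± 0.46, adjusted p = 0.000548) and Clec4d (3.74 ± 0.85, adjusted p = 0.0202), with a list median of -0.17. Clec4n rested on only 3 to 5 reads per Col vehicle mouse against 401 to 1169 reads at Col 10U 6d. It was the only one of the list called at Col 10U 2d (6.01 ± 0.77, adjusted p = 0.025). Of 13 other Fc receptor genes, which include the neonatal receptor Fcgrt and the Fc receptor-like genes, 4 were tested at Col 10U 6d and 1 was called, Fcrls (2.65 ± 0.28, adjusted p = 0.00245). Fcgrt, which carries IgG through cells, was at -0.47 ± 0.25 (adjusted p = 0.183). Of the regulators of Fc receptor expression 5 of 9 tested were called higher at Col 10U 6d, with a median of 1.0. These included the interleukin 10 receptor Il10ra (2.37 ± 0.38, adjusted p = 0.00761), the complement receptor C5ar1 (1.91 ± 0.59, adjusted p = 0.0476) and Tgfb1 (1.44 ± 0.34, adjusted p = 0.0219). Of the list of Fc receptor ligands and antibody chains only Ptx3, a pentraxin, and Igj, the joining chain of polymeric antibodies, were tested. Igj was called lower at Col 10U 6d (-5.18 ± 1.33, adjusted p = 0.0284). Salivary gland markers were also lower there (11.4 to 34.0 CPM) than in Col vehicle (90.8 to 162843 CPM). The part of gland RNA in the Igj difference was not tested. Ptx3 was called higher at CFA 5d (1.5 ± 0.20, adjusted p = 0.0352), and IgG genes were not analysed here. From Col 10U 6d to Col 10U 12d 5 of 18 ITAM, 5 of 12 ITIM, 3 of 9 regulator, 1 of 5 chain-sharing and 1 of 4 other Fc receptor genes were called lower and none higher, where 13% of all genes tested were called lower.

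The levels of the 5 genes followed each other from mouse to mouse. Over the 31 libraries Pearson's r of log2 CPM between 2 members ran from 0.798 (Fcgr3 and Fcgr4) to 0.951 (Fcgr1 and Fcer1g), and for deviations from group means from 0.682 (Fcgr3 and Fcgr4) to 0.943 (Fcgr3 and Fcer1g). These are descriptions over libraries that share treatment, tissue makeup and scaling. Among the genes most like Fcgr1 over the 31 libraries were Ms4a6d (r = 0.965), Tlr1 (0.963), Tmem106a (0.961) and Ms4a6c (0.960). For Fcgr2b they were Lilrb3 (0.958), Cyth4 (0.950), Fcgr3 (0.944), Fcer1g (0.944) and Ms4a6d (0.944). Fcgr3 was most like Inpp5d (0.966), Tnfaip8l2 (0.963), Cd300lb (0.961), Cotl1 (0.953) and Lilrb3 (0.951). Fcer1g was most like Laptm5 (0.972), Cyth4 (0.971), Tlr13 (0.967), Cd53 (0.967) and Lilrb3 (0.965), and those most like Fcgr4 included Ly86 (0.922), Sp110 (0.906), Aif1 (0.905) and Ctss (0.904). Within groups Ly86 (r = 0.916) stayed the closest to Fcgr4, while Irak4 (0.949), Laptm5 (0.969) and Cotl1 (0.972) came first for Fcgr2b, Fcgr3 and Fcer1g.

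Macrophage markers were highest in the same group as most members. The 10 markers summed to 330 to 695 CPM in Col vehicle, 675 to 1465 CPM at Col 10U 2d, 1633 to 3096 CPM at Col 10U 6d and 300 to 471 CPM in CFA vehicle mice, with 439 to 689 CPM at CFA 1d and 617 to 807 CPM at CFA 5d. The macrophage markers were thus higher at CFA 5d than at CFA 1d by their medians (658 and 502 CPM), whereas 4 of the 5 members had lower means at CFA 5d. At Col 10U 6d 9 of the 10 were called higher and 1 lower. Dendritic cell markers also moved there, with 22.6 to 31.5 CPM against 7.36 to 10.9 CPM in Col vehicle and 4 of 6 called higher. Of 5 monocyte markers 2 were called higher and 1 lower. Skeletal muscle markers were at 37117 to 62428 CPM at Col 10U 6d and 31701 to 64565 CPM at Col 10U 2d against 99718 to 145675 CPM in Col vehicle, with 2 of 8 called lower at Col 10U 6d and 0 of 8 at Col 10U 2d. Neutrophil markers did not follow the same course. They summed to 9.05 to 853 CPM in Col vehicle. At Col 10U 2d they were at 102 to 330 CPM and at Col 10U 6d at 21.5 to 33.3 CPM. Marrow precursor markers, given below, were also higher in every Col vehicle mouse than at Col 10U 6d. The part of marrow RNA in the neutrophil markers was not tested, so they do not show whether neutrophils in the muscle fell. By flow cytometry the study reported elevated neutrophils after the high dose of Col, on the day after injection and again within the same week. It reported them as still elevated on day 14. B cell markers, which would accompany Fcgr2b as the Fc receptor of B cells, summed to 1.53 to 1.68 CPM at Col 10U 6d and 0.798 to 15 CPM in Col vehicle, with 0 of 1 tested called, and NK cell markers, which would accompany Fcgr3, summed to 2.07 to 6.20 CPM against 0.261 to 1.66 CPM, with 1 of 2 tested called higher. Mast cell markers were at 13.8 to 23.1 CPM against 33.6 to 40.0 CPM, with 2 of 5 tested called lower. Salivary gland and marrow precursor markers were at or near their lowest at Col 10U 6d, at 11.4 to 34.0 and 1.71 to 3.65 CPM. In Col vehicle mice, the controls of all Col groups, they were at 90.8 to 162843 and 8.98 to 923 CPM. At Col 10U 2d they reached 135344 and 299 CPM. The part of each cell type and of this other tissue in the members' levels and differences was not tested.

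**Figure D4:**
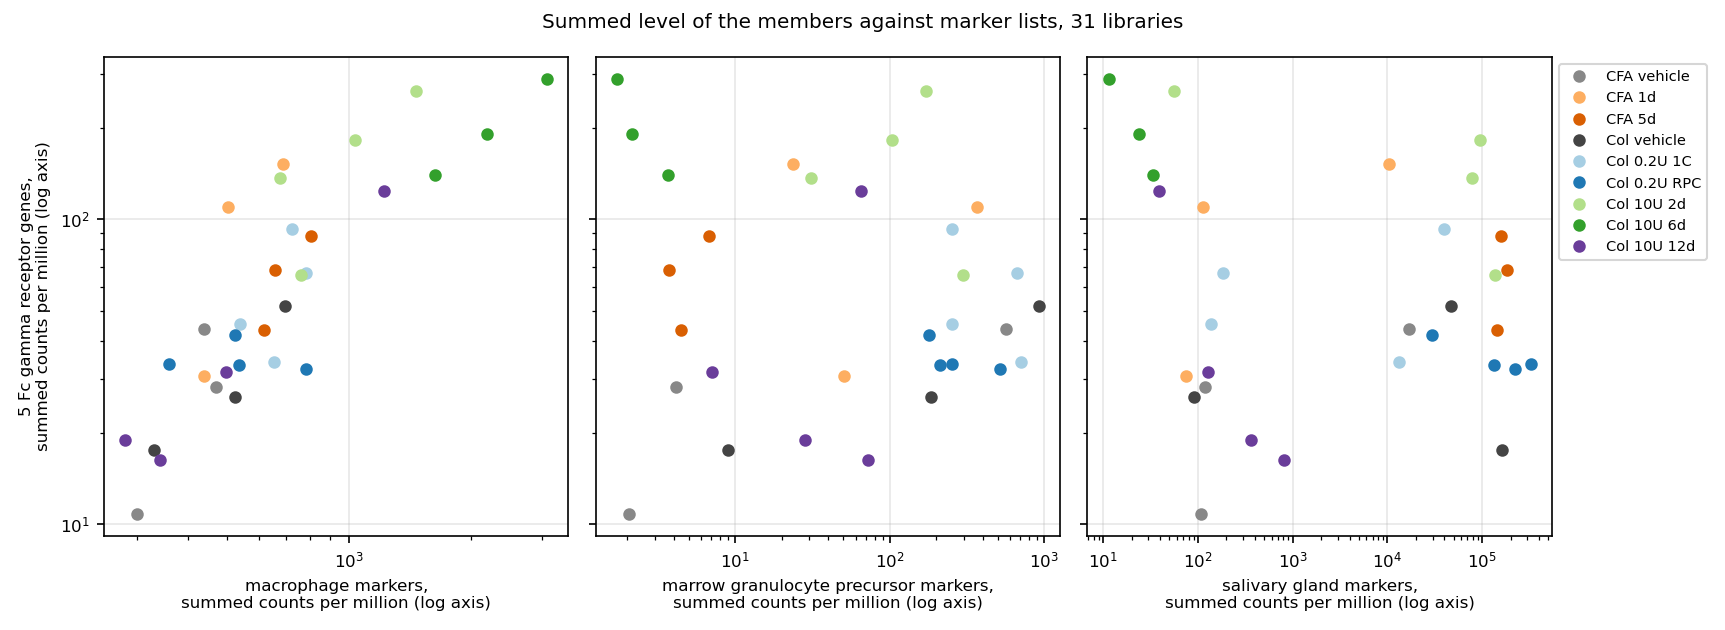
Summed CPM of the 5 members (vertical, log axis) against summed CPM of macrophage, marrow granulocyte precursor and salivary gland markers (horizontal, log axes) in 31 libraries coloured by group. The members rose with the macrophage markers up to 289 CPM in a Col 10U 6d mouse, and took both high and low values where marrow or salivary markers were low.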

How the data were processed

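Per the labels, poly(A) RNA was made into stranded TruSeq libraries and sequenced from 1 end over 50 bases. Alignment by the authors used TopHat2 and mm9, and HTSeq is named in the submitters' processing notes. Its settings, including strand, are not given in the sources used here. The deposited unit is raw counts of reads per gene symbol, not normalized, and the authors used DESeq2. Each file closes with 5 lines of unassigned reads (41.7 to 58.9% of all lines' reads), which were left out. No pair of the 465 pairs of libraries was identical. Each sample was taken as 1 mouse, which the labels do not state, and otherwise p-values measure only the spread between samples.

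For each comparison, genes reaching 10 reads in 3 or more of its libraries were tested with edgeR 4.0.16 (R 4.3.3), TMM scaling and the quasi-likelihood test on the groups compared, with Benjamini-Hochberg adjustment over all genes tested and a threshold of 0.05. The study itself tested with DESeq2, and here DESeq2 1.42.0 was run as an alternative. Intervals used the t quantile at the test's degrees of freedom. CPM per mouse were scaled by TMM over all 31 libraries, and exon lengths came from GENCODE vM1. Ratios used log2((a + 0.5)/(b + 0.5)) of reads. Counting error alone is 31.6% at 10 reads, which corresponds to 0.344 CPM at the greatest and 0.674 CPM at the lowest depth. The fits were tested on simulated data.

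Members, gene lists and tests were chosen with earlier results of these data known. Up to 3 called genes with the largest change were named per list, Inpp5d and Fcgrt were added after their values were seen, and up to 5 of the most alike genes were named per member. Some genes that these rules would name are not reported here. The labels do not tie same-numbered samples of different groups to each other. Their deviations from group means correlated at 0.165, 0.256 and 0.592 for CFA 1d and CFA vehicle and at 0.205, 0.115 and 0.677 for the 2 vehicle groups. Every other comparison had values of both signs, such as -0.339, -0.35 and 0.337 for Col 0.2U 1C and Col vehicle. This check thus does not show that same-numbered mice were pairs. The blocked fit changed no call of a member in the comparisons with positive values alone. Alternatives were DESeq2, its size factors in edgeR, library sizes alone, no low-count filter, the study's criteria (fold change over 2, RPKM over 1), a shared fit, a replicate block, pooled vehicle mice, each mouse left out, and, added after seeing the data, tissue marker covariates. Protein sequences were not used here.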

Additional observations from a re-analysis of the deposited data

Results flagged for a closer look

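In the groups of 4 mice, the highest or lowest mouse was set against Dixon's 95% limit for each of the 5 genes, on unlogged CPM. Of the 20 checks 7 were past the limit, all on the high side. The limit marks about 1 in 20 by chance only for normally distributed values and independent checks. Unlogged CPM can be skewed upward and the 5 genes varied together, so the number of flags cannot be read against that rate. In the Col 10U 12d group the fourth mouse stood apart for Fcgr1 (10.8 CPM), Fcgr2b (31.7 CPM), Fcgr4 (6.74 CPM) and Fcer1g (35.9 CPM), while the next highest mouse had 1.45, 6.90, 1.08 and 9.91 CPM. Its macrophage, leukocyte and muscle marker values are given in the report, and their part in this was not tested.

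In the Col 0.2U RPC group the third mouse was highest for Fcgr1 (4.27 CPM, next 2.67) and Fcgr4 (3.16 CPM, next 0.574), and it had 6.27 CPM of neutrophil markers against 259 to 289 CPM in its group mates. In the Col 0.2U 1C group the third mouse was highest for Fcgr2b (22.1 CPM, next 8.85). No member passed the interaction test between the early CFA and Col responses.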

How the results depend on the processing

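The direction of all 5 members against vehicle at CFA 1d, CFA 5d, Col 10U 2d and Col 10U 6d was the same under every alternative run, and at Col 10U 6d all 5 stayed called except under the replicate block (3) and with 1 mouse left out (2 to 5). Main counts of members called were 0 at CFA 1d, CFA 5d and Col 0.2U 1C, 1 at Col 10U 2d, and 2 lower from Col 10U 6d to Col 10U 12d. DESeq2 called 1, 2, 1, 5 and 4 of them in that order. At Col 10U 2d the count was 2 with DESeq2's size factors or no low-count filter, 4 with the shared fit or covariates, 5 with the replicate block or pooled vehicle mice, and 0 to 5 with 1 mouse left out. Pooled vehicle mice gave 1 at Col 0.2U 1C. From Col 10U 6d to Col 10U 12d it was 0 with library sizes alone, 4 with the shared fit or covariates, 5 with the block and 0 to 5 with 1 mouse left out. At CFA 5d the block gave 1 and leaving out 1 mouse 0 to 4, and ratios apart from vehicle numbered 19 to 28 of 49. Why these counts differ was not tested. No interaction was fitted with the block or pooled vehicle mice.

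Reversed signs fell on differences that passed no threshold. With library sizes alone, which moved the median of all genes by up to 0.54 (Col 10U 6d), they were -0.04 for Fcgr3 and -0.01 for Fcgr4 in Col 0.2U RPC, -0.07 for Fcgr4 from CFA 1d to CFA 5d, 0.10 for Fcgr3 from Col 10U 2d to Col 10U 6d, and -0.13 for Fcgr1 and -0.21 for Fcer1g in the interaction. The numbers used by the replicate block are not known to pair mice. Under this block Col 10U 12d against vehicle gave -0.14, -0.20, -0.30, -0.41 and -0.73 for Fcgr1, Fcgr2b, Fcgr3, Fcgr4 and Fcer1g. Also under the block, Fcer1g in Col 0.2U RPC was 0.00 (as with pooled vehicles) and Fcgr2b from Col 10U 2d to Col 10U 6d was -0.02. With covariates Fcgr3 was 0.09 from CFA 1d to CFA 5d and 0.51 from Col 10U 2d to Col 10U 6d, and between the vehicle groups Fcgr1, Fcgr2b and Fcgr3 were -0.01, -0.14 and -0.25. The ratio of Fcgr2b to Fcer1g at CFA 1d was 0.01 with pooled vehicles.

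With 1 mouse left out, ranges crossing 0 were, at Col 10U 12d against vehicle, -0.20 to 1.77 (Fcgr1), -0.27 to 1.30 (Fcgr2b), -0.44 to 1.17 (Fcgr3), -0.62 to 2.34 (Fcgr4) and -0.83 to 0.90 (Fcer1g). They were -0.50 to 0.45 (Fcer1g), -0.21 to 0.80 (Fcgr3) and -0.89 to 1.45 (Fcgr4) in Col 0.2U RPC, and -0.02 to 1.61 for Fcgr4 in Col 0.2U 1C. From Col 10U 2d to Col 10U 6d they were -0.04 to 0.85 (Fcgr1), -0.01 to 0.62 (Fcgr2b) and -0.26 to 0.35 (Fcgr3), and from CFA 1d to CFA 5d -0.68 to 0.15 (Fcgr3) and -0.17 to 1.15 (Fcgr4). Between vehicle groups they were -0.25 to 0.70 (Fcgr1), -0.30 to 0.50 (Fcgr2b), -0.50 to 0.60 (Fcgr3) and -0.18 to 1.11 (Fcer1g), and in the interaction -0.27 to 0.71 (Fcgr1), -0.66 to 1.64 (Fcgr4) and -0.48 to 0.74 (Fcer1g). Of the other values of single members and ratios, 965 were the same (same direction and side of the threshold, or for ratios within the spread between mice), 46 gained and 28 lost a call and 103 moved by more than the spread. Fcgr4 rests on as few as 2 reads per library.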

Other observations

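Relative to Csf1r, the receptor that macrophages depend on and a gene chosen here after its values were seen, Fcgr1 reads were also higher after injection, but this rests on the marker. At Col 10U 6d 7 of the 10 macrophage markers had larger fitted differences than Csf1r (1.61 ± 0.39, log2 fold change ± SE), and Mpeg1 (3.80 ± 0.63), Cd68 (3.38 ± 0.67) and Aif1 (3.20 ± 0.45) were close to Fcgr1 (3.90 ± 0.48). At CFA 1d Csf1r was at 0.33 ± 0.40 and Aif1 at 2.65 ± 0.85, against 3.63 ± 0.91 for Fcgr1. The log2 ratio of Fcgr1 to Csf1r was -4.90 to -4.44 in CFA vehicle mice, -3.92 to -0.54 at CFA 1d and -2.97 to -1.90 at CFA 5d. It was -5.48 to -4.38 in Col vehicle mice, -3.93 to -1.98 in Col 0.2U 1C, -4.69 to -2.86 in Col 0.2U RPC, -3.48 to -1.40 at Col 10U 2d, -3.11 to -2.36 at Col 10U 6d and -4.29 to -3.12 at Col 10U 12d. All groups but Col 0.2U RPC thus lay above their vehicle range. The log2 ratio of Fcgr3 to Csf1r, by comparison, was -2.47 to -1.39 in Col vehicle and -1.50 to -1.45 at Col 10U 6d, with overlap, and -1.84 to -1.50 in CFA vehicle and -1.80 to -0.73 at CFA 1d, also with overlap. These values are a description and were not tested, and they do not show that Fcgr1 rose beyond macrophage markers in general.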
